A study of Mus musculus with 6 samples.

Results

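The genes described here are the neurotrophins and the ligands of the GDNF family with their receptors, in whole brains of neonatal mice given testosterone propionate (TP). The listed members were 9 genes, Bdnf, Ntf3, Ntrk2, Ntrk3, Ngfr, Gdnf, Ret, Gfra1 and Gfra2. All probe sets that the array annotation pairs with a member alone were taken, which gave 32 probe sets of 8 genes, out of 34945 single-gene probe sets of 18193 genes. Ntf3, which encodes neurotrophin-3, had no probe set named for it in the annotation used and was not analysed here. TP, an ester of the androgen testosterone, was injected intraperitoneally on postnatal day 2 (1 mg per mouse in 20 µL of sesame oil), controls received the oil alone, and brains of both were taken on postnatal day 6. All mice were C57BL/6, and every Affymetrix array carried RNA pooled from 6 mice. There were 2 female TP arrays, 2 female vehicle arrays, 1 male TP array and 1 male vehicle array. The later female array of each treatment is called a replica in the labels, which do not say that it came from another pool. The p-values in females thus cover variation from array to array, part or all of which may be technical. Those over both sexes and for males against females also take in the difference between the TP effects of the sexes, with 1 array in each male group.

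Neurotrophins are secreted proteins that keep neurons alive and shape their synapses. BDNF acts through the receptor tyrosine kinase TrkB, encoded by Ntrk2, and neurotrophin-3 acts mainly through TrkC, encoded by Ntrk3. The p75 receptor, encoded by Ngfr, binds all neurotrophins and can signal survival or death. GDNF binds GFRα1, a receptor anchored to the membrane by a lipid, and the pair then activates the receptor tyrosine kinase RET. GFRα2, encoded by Gfra2, does the same for the related ligand neurturin. Gonadal steroids of the newborn period are known to set neuron number in some nuclei of the rodent brain and spinal cord.

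Start-site windows of RefSeq (mouse assembly GRCm38.p6) matched 6 of the 9 members (not Ret, Ntrk3 or Gfra2), with 14 windows in all, and each was read over the 250 bases before the start. They are shown for Ngfr, whose brightest probe set had the widest range over arrays of those of the members, and for 3 of the 7 start sites of Bdnf, because these hold AGAACA, the hexamer that forms each arm of the androgen receptor palindrome. Capitals mark GGGCGG, the GC box, and AGAACA on either strand.
Ngfr, chr11:95587699-95587948, minus strand: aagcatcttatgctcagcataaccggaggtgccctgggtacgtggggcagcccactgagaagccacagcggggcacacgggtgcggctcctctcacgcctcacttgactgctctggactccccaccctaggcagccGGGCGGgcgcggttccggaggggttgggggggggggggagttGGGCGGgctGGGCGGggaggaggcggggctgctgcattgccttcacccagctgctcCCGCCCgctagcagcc
Bdnf, chr2:109674450-109674699, plus strand: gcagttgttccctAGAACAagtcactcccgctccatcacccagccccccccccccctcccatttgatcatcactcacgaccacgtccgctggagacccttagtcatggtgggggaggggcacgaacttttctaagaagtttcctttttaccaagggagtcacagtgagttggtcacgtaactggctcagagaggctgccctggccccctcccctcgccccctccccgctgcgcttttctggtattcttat
Bdnf, chr2:109676782-109677031, plus strand: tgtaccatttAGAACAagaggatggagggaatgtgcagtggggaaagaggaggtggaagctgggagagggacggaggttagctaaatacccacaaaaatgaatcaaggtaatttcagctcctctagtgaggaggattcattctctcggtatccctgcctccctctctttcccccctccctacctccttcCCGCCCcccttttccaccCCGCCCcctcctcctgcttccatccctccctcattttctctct
Bdnf, chr2:109709133-109709382, plus strand: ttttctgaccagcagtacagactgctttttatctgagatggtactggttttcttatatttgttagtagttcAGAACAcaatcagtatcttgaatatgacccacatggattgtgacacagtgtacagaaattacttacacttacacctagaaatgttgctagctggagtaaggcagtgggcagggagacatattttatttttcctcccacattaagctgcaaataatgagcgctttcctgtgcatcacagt
The Ngfr window held 4 GC boxes and was 70.4% G and C, against a median of 52.4% over 32851 windows of the same length. A GC box stood in 5 of the 14 member windows and in 32.7% of all windows. The hexamer AGAACA stood in 3 of the 14 member windows, all of Bdnf, and in 16.1% of all windows. The full androgen receptor palindrome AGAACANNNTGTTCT, which contains that hexamer, and the estrogen receptor palindrome GGTCANNNTGACC stood in 0 of the 14. They stood in 0.00913% and 0.0639% of all windows. The TATA box TATAAA stood in 1 of the 14, of Gdnf, and in 12.4% of all, and the cAMP response element TGACGTCA in 0 of the 14 and in 1.55% of all, both strands searched.

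Values are deposited log2 expression levels per probe set. Levels of different probe sets cannot be set against each other, so each was compared across arrays only. Array medians lay between 5.69 and 5.74, and the marker genes of neurons, astrocytes and the oligodendrocyte lineage were all above the 40th percentile of probe sets (log2 level 4.98), below which a probe set is called dim. The Y-linked gene Eif2s3y stood at 9.12 and 9.16 in the male TP and male vehicle arrays and between 2.84 and 3.09 in the female ones. Xist, the noncoding RNA of the inactive X, stood at 10.45 in the male TP array, against 5.29 in the male vehicle array, and between 12.61 and 12.83 in female arrays. The array labelled male TP thus stands apart, with Xist between the other male array and the females and Eif2s3y at the level of the other male array. Whether its pool held RNA of both sexes, or its label is wrong, was not tested, and the doubt applies to every value in males and over both sexes. The main values over both sexes are therefore also given without it. Without it, the difference over both sexes is that between the female arrays. In RNA from whole brain, fewer cells of a type and less RNA per cell cannot be told apart.

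No measured member of these families changed past the threshold with TP. The values with the smallest p were lower with TP for Ngfr (-0.24 log2 units), Ret (-0.16) and a dim probe set of Ntrk2 (-0.18), and higher for the dim probe set of Gdnf (0.16). Across the family, 0 of the 32 probe sets passed an adjusted p under 0.05 when TP was compared with vehicle over both sexes, where 0.00888% of all 45037 probe sets did. At an unadjusted p under 0.05 there were 4 member probe sets, 3 lower and 1 higher, which is 4 of 32 beside 12.3% of all probe sets. TP arrays lay wholly to 1 side of vehicle arrays at 3 member probe sets, beside 15.2% of all. Differences were negative for 21 and positive for 11, beside 55.8% negative over all probe sets, and their median was -0.021 log2 units, beside -0.016 over all. The count at an unadjusted p under 0.05 was at the background share, and that of probe sets with groups apart was below it. In the 4 female arrays 0 of 32 passed beside 0.0111% of all probe sets, 2 (1454903_at of Ngfr and 1443970_at of Ntrk3) had an unadjusted p under 0.05 beside 8.13%, and 10 had groups that did not overlap beside 38.4%. Negative differences numbered 16 of 32 in females, beside 54.0% of all probe sets.

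**Figure D1:**
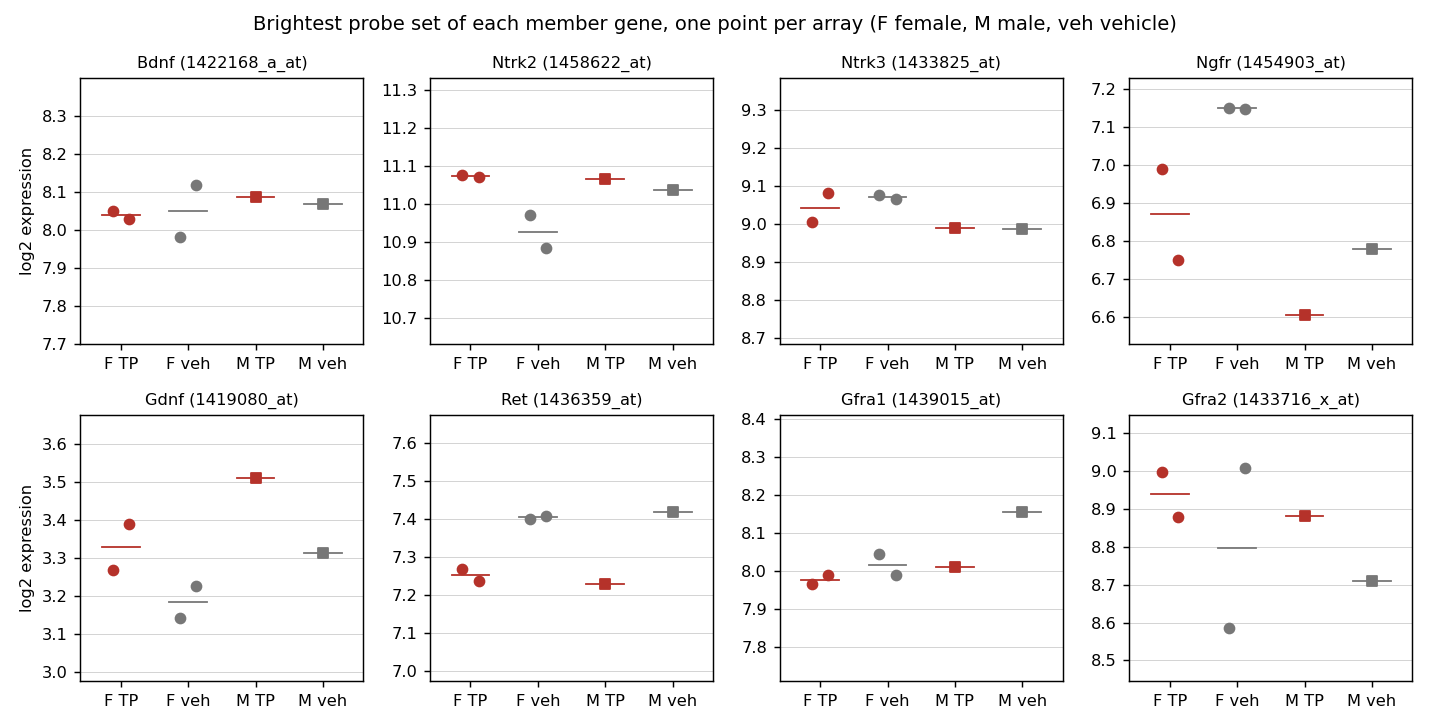
Each panel plots the log2 expression of the brightest probe set of a member gene, with 1 point per array (circles female, squares male, red TP, grey vehicle) and a line at the group's mean. Every panel spans the same height in log2 units; Ret is the panel in which all 3 red points lie below all 3 grey ones, with a gap of 0.13 log2 units.

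Among the ligands, Bdnf was measured by 2 probe sets, of which 1422168_a_at was the brighter. It stood at 8.05 and 8.03 in female TP arrays, against 7.98 and 8.12 in female vehicle arrays, and 8.09 in the male TP array, against 8.07 in the male vehicle array. The vehicle females enclosed the TP females, and the difference over both sexes was -0.00018 log2 units with a 95% interval of -0.15 to 0.15. The other Bdnf probe set (1422169_a_at) was at 7.04 and 7.26 in female TP arrays, against 7.27 and 7.35 in female vehicle arrays, and 7.35 in the male TP array, against 7.39 in the male vehicle array. There both TP females lay below both vehicle females, but the male TP array lay above female vehicle array 1, and the difference was -0.12 log2 units (SE 0.079, adjusted p = 0.569), or -0.16 without the male TP array. Gdnf, the ligand of RET and GFRα1, had a single probe set (1419080_at), which was dim. It read 3.27 and 3.39 in female TP arrays, against 3.14 and 3.23 in female vehicle arrays, and 3.51 in the male TP array, against 3.31 in the male vehicle array. Each sex's TP arrays were above its vehicle arrays, while across sexes the groups overlapped because the male vehicle array exceeded female TP array 1. Its difference was 0.16 log2 units (SE 0.067, adjusted p = 0.401). The probe set lay below the dim level in all 6 arrays.

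Ret, the signalling receptor of the GDNF family, had the widest gap between TP and vehicle arrays of any member. Its brightest probe set (1436359_at) read 7.27 and 7.24 in female TP arrays, against 7.40 and 7.41 in female vehicle arrays, and 7.23 in the male TP array, against 7.42 in the male vehicle array. All 3 TP arrays lay below all 3 vehicle arrays, with a gap of 0.13 log2 units between the groups. The mean was 7.25 ± 0.023 in female TP and 7.40 ± 0.0074 in female vehicle arrays (SD, n = 2 each). Over both sexes the difference was -0.16 log2 units (SE 0.060, adjusted p = 0.358), -10.7% on the linear scale, with a 95% interval of -0.30 to -0.024 log2 units. Without the male TP array it was -0.15 log2 units (SE 0.079, adjusted p = 0.674). The second Ret probe set (1421359_at) read 5.58 and 5.69 in female TP arrays, against 5.63 and 5.53 in female vehicle arrays, and 5.49 in the male TP array, against 5.88 in the male vehicle array. It was lower with TP in males but not in females, where the groups overlapped, and its difference over both sexes was -0.093 log2 units (SE 0.10, adjusted p = 0.746).

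Of the GDNF family co-receptors, Gfra1, which binds GDNF, had 3 probe sets, 2 with negative and 1 with a positive difference. Its brightest probe set (1439015_at) read 7.96 and 7.99 in female TP arrays, against 8.04 and 7.99 in female vehicle arrays, and 8.01 in the male TP array, against 8.16 in the male vehicle array. The male TP array lay within the female vehicle range, so the groups overlapped, and the difference was -0.075 log2 units (SE 0.063, adjusted p = 0.664). Another probe set (1450440_at) was dim by a narrow margin, with a mean of 4.974 against the dim level of 4.976. It had a difference of -0.19 log2 units over both sexes, -0.059 in females and -0.46 in males. The third (1421973_at), also dim, had a difference of the opposite sign and read 4.78 and 4.71 in female TP arrays, against 4.73 and 4.54 in female vehicle arrays, and 4.91 in the male TP array, against 4.80 in the male vehicle array.

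Gfra2, the receptor of neurturin, had 5 probe sets, 3 with negative and 2 with positive differences. Its brightest (1433716_x_at) read 8.996 and 8.88 in female TP arrays, against 8.59 and 9.01 in female vehicle arrays, and 8.88 in the male TP array, against 8.71 in the male vehicle array. The vehicle females were themselves the lowest and the highest and enclosed every other array, and the difference was 0.15 log2 units (SE 0.11, adjusted p = 0.609). It was 0.034 without female vehicle array 1 and 0.27 without female vehicle array 2. The ending _x_at marks a probe set whose probes may also match other transcripts. Across the 6 arrays this probe set was negatively correlated with the other 4 of the gene, at a Pearson's r of -0.94 with 1423007_a_at, -0.79 with 1459847_x_at, -0.23 with 1425578_a_at and -0.22 with 1425579_at, all as a description. Of the probe sets with a difference of the opposite sign, 1423007_a_at, which was dim, read 4.80 and 4.85 in female TP arrays, against 5.21 and 4.75 in female vehicle arrays, and 4.86 in the male TP array, against 5.24 in the male vehicle array. Female vehicle array 2 lay below all 3 TP arrays there while the other vehicle arrays lay above them. The second _x_at probe set (1459847_x_at) read 7.80 and 7.78 in female TP arrays, against 7.93 and 7.74 in female vehicle arrays, and 7.90 in the male TP array, against 7.86 in the male vehicle array. Its arrays differed by 0.19 log2 units at most, with TP and vehicle arrays mixed. The dim probe set 1425578_a_at read 4.78 and 4.19 in female TP arrays, against 4.77 and 4.35 in female vehicle arrays, and 4.53 in the male TP array, against 4.38 in the male vehicle array. In females the original arrays of both treatments lay above their replicas there. The fifth (1425579_at) had a difference of 0.090 log2 units (SE 0.068, adjusted p = 0.626).

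Among the neurotrophin receptors, Ngfr had the widest range over arrays of the members' brightest probe sets, 0.54 log2 units. This probe set (1454903_at) read 6.99 and 6.75 in female TP arrays, against 7.15 and 7.15 in female vehicle arrays, and 6.61 in the male TP array, against 6.78 in the male vehicle array. Within each sex TP was below vehicle, but the male vehicle array lay below female TP array 1, so the groups overlapped. The mean was 6.87 ± 0.17 in female TP and 7.15 ± 0.0014 in female vehicle arrays (SD, n = 2 each). Over both sexes the difference was -0.24 log2 units (SE 0.080, adjusted p = 0.324), -15.5% on the linear scale, and without the male TP array it was -0.28 log2 units (SE 0.10, adjusted p = 0.591). The value in females was -0.16 without female TP array 2, -0.40 without female TP array 1 and -0.083 for the mean of the 3 probe sets. Both other Ngfr probe sets were dim. Of these, 1450177_at had a difference of the opposite sign and read 3.74 and 3.99 in female TP arrays, against 3.80 and 3.52 in female vehicle arrays, and 3.67 in the male TP array, against 3.65 in the male vehicle array, and 1421241_at had a difference of -0.047 log2 units. The negative value of Ngfr thus rests on 1 probe set that was not dim.

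Ntrk2, encoding TrkB, which exists as a full-length kinase and as truncated forms, had 8 probe sets, 4 with negative and 4 with positive differences over both sexes. The brightest (1458622_at) read 11.08 and 11.07 in female TP arrays, against 10.97 and 10.88 in female vehicle arrays, and 11.07 in the male TP array, against 11.04 in the male vehicle array. The TP arrays lay above all vehicle arrays with a gap of 0.029 log2 units, and the difference was 0.11 log2 units (SE 0.065, adjusted p = 0.54). Another probe set (1420838_at) also had groups that did not overlap, the nearest arrays being 9.572 in the male TP array and 9.568 in the male vehicle array. Its females stood at 9.58 and 9.59 with TP, against 9.57 and 9.55 with vehicle, and its difference was 0.021 log2 units (SE 0.059, adjusted p = 0.913). Of the 32 member probe sets, these and 1436359_at of Ret were the 3 with TP and vehicle arrays apart. The 2 others with positive differences were 1435196_at, at 0.029, and 1446712_at, at 0.10 log2 units.

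Other Ntrk2 probe sets gave differences of the opposite sign. One of them (1435305_at) read 10.33 and 10.26 in female TP arrays, against 10.27 and 10.26 in female vehicle arrays, and 10.32 in the male TP array, against 10.43 in the male vehicle array. Another (1437560_at) read 9.35 and 9.67 in female TP arrays, against 9.47 and 9.51 in female vehicle arrays, and 9.52 in the male TP array, against 9.64 in the male vehicle array, and its TP females alone spanned the whole range of the 6 arrays. At 1420837_at TP and vehicle overlapped in females. It read 6.14 and 6.01 in female TP arrays, against 6.03 and 6.09 in female vehicle arrays, and 5.85 in the male TP array, against 6.30 in the male vehicle array. The difference of the TP effects, female minus male, was 0.46 log2 units, with 1 array in each male group. The dim probe set 1444121_at read 2.68 and 2.56 in female TP arrays, against 2.87 and 2.69 in female vehicle arrays, and 2.93 in the male TP array, against 3.16 in the male vehicle array, with the males above all females, and its difference over both sexes was -0.18 log2 units (SE 0.076, adjusted p = 0.401), or -0.16 without the male TP array. Which probe sets read the full-length or the truncated forms was not examined here.

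Ntrk3, encoding TrkC, had 8 probe sets, 6 with negative and 2 with positive differences. The brightest (1433825_at) read 9.01 and 9.08 in female TP arrays, against 9.08 and 9.07 in female vehicle arrays, and 8.99 in the male TP array, against 8.99 in the male vehicle array. TP and vehicle arrays were interleaved, and the difference was -0.018 log2 units (SE 0.062, adjusted p = 0.93) with a 95% interval of -0.16 to 0.13. The 2 probe sets of opposite sign were 1455917_at and 1447723_at. Of these, 1455917_at read 7.60 and 7.58 in female TP arrays, against 7.61 and 7.52 in female vehicle arrays, and 7.62 in the male TP array, against 7.56 in the male vehicle array, and the groups overlapped. By contrast, 1447723_at read 6.54 and 6.41 in female TP arrays, against 6.37 and 6.07 in female vehicle arrays, and 6.56 in the male TP array, against 6.67 in the male vehicle array, with TP above vehicle in females and below it in males. The lowest difference of any member was that of 1425070_at, -0.29 log2 units (SE 0.14, adjusted p = 0.442), or -0.24 without the male TP array. The largest in females alone was that of the dim probe set 1443970_at, -0.37 log2 units (SE 0.10, adjusted p = 0.543), where TP and vehicle females did not overlap, while in males TP minus vehicle was 0.072. By array, 1443970_at read 3.98 and 4.08 in female TP arrays, against 4.30 and 4.50 in female vehicle arrays, and 4.15 in the male TP array, against 4.07 in the male vehicle array. The remaining 3, 1422329_a_at, 1425071_s_at and the dim 1426003_at, had differences between -0.054 and -0.039 log2 units.

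**Figure D2:**
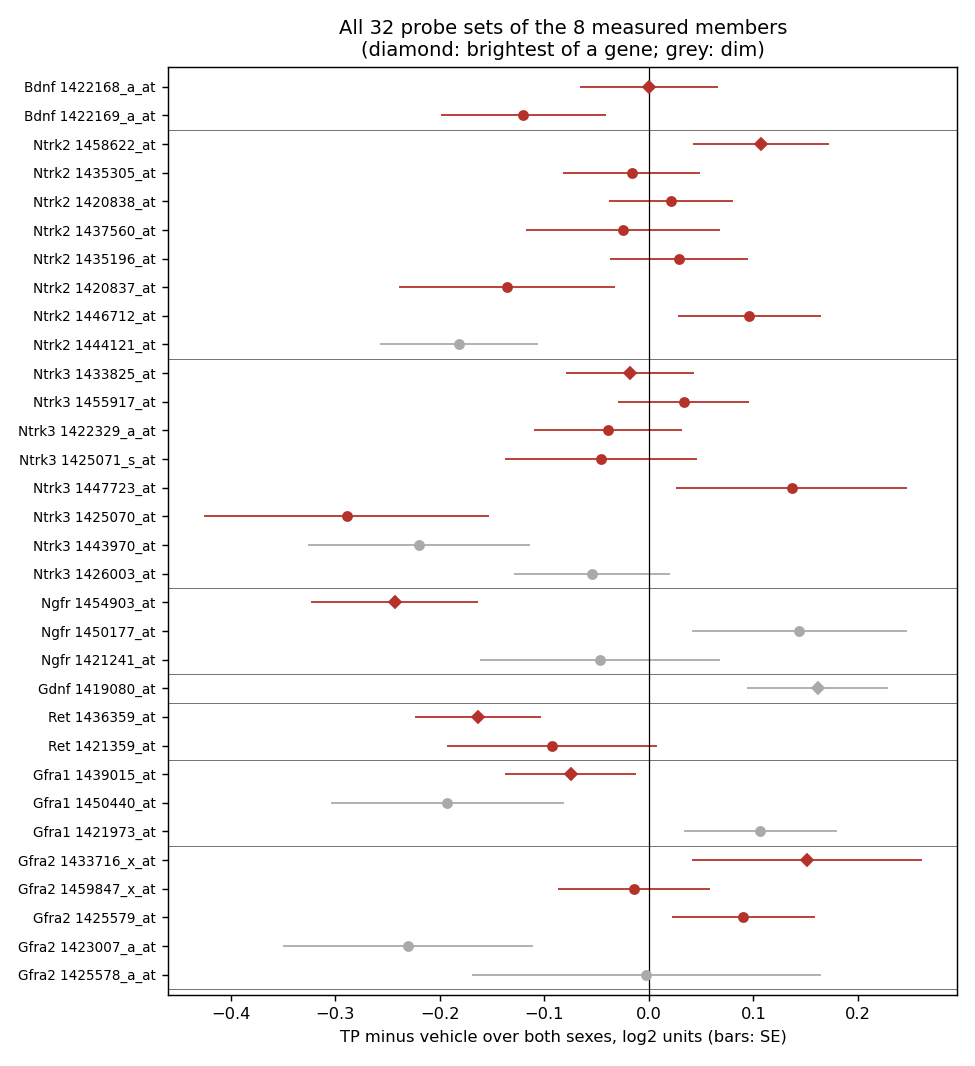
The plot gives the difference of TP minus vehicle over both sexes in log2 units on the horizontal axis, with bars of 1 SE, for all 32 probe sets grouped by gene; diamonds are the brightest of a gene, and grey marks dim probe sets. Bdnf and Ret are the genes whose probe sets all lie on the negative side, though 1422168_a_at of Bdnf lies at -0.00018. The probe sets of Ntrk2, Ntrk3, Ngfr, Gfra1 and Gfra2 lie on both sides.

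Probe sets of the same gene often differed in the sign of the TP difference. Of the 7 members with more than 1 probe set, all differences over both sexes had the same sign in 2, Bdnf and Ret. The share over all genes with more than 1 probe set was not counted here. In Ngfr and in Gfra1 the only positive difference was that of a dim probe set. Pearson's r over the 6 arrays between the brightest and another probe set of its gene ranged from -0.94 for Gfra2 to 0.85 for Ntrk2. The latter was between 1458622_at and 1420838_at, whose arrays differed by 0.042 log2 units at most. These correlations share arrays and are descriptions. Over all members 22 probe sets were not dim and 10 were dim.

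The sexes were then set side by side. Without the male TP array, the differences of the brightest probe sets not yet given were -0.0099 for Bdnf, 0.14 for Gdnf, -0.040 for Gfra1, 0.14 for Gfra2, 0.15 for Ntrk2 and -0.028 log2 units for Ntrk3, each of the same sign as over both sexes. In males, with 1 array each and no test, TP minus vehicle was negative for 15 and positive for 17 of the 32 probe sets, beside 54.3% negative over all probe sets, and ranged from -0.46 for 1450440_at of Gfra1 to 0.21 for 1421241_at of Ngfr. The sign was the same in females and males for 6 of the 8 brightest probe sets, beside 62.6% of all genes at their brightest probe set. It was the same for 19 of all 32, beside 60.9% of all probe sets. With 1 array in each male group, the SE and p of the difference between the sexes' TP effects come from the female arrays alone and leave out any spread between male arrays, one of which stands apart. That difference passed for 0 of 32 probe sets, beside 0.0155% of all, and 3 had an unadjusted p under 0.05, beside 4.93%. These were 1420837_at of Ntrk2, 1421359_at of Ret and 1443970_at of Ntrk3, all with an adjusted p of 1.00. For 1421359_at of Ret the difference, female minus male, was 0.44 log2 units, made of 0.053 in females and -0.38 in males.

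**Figure D3:**
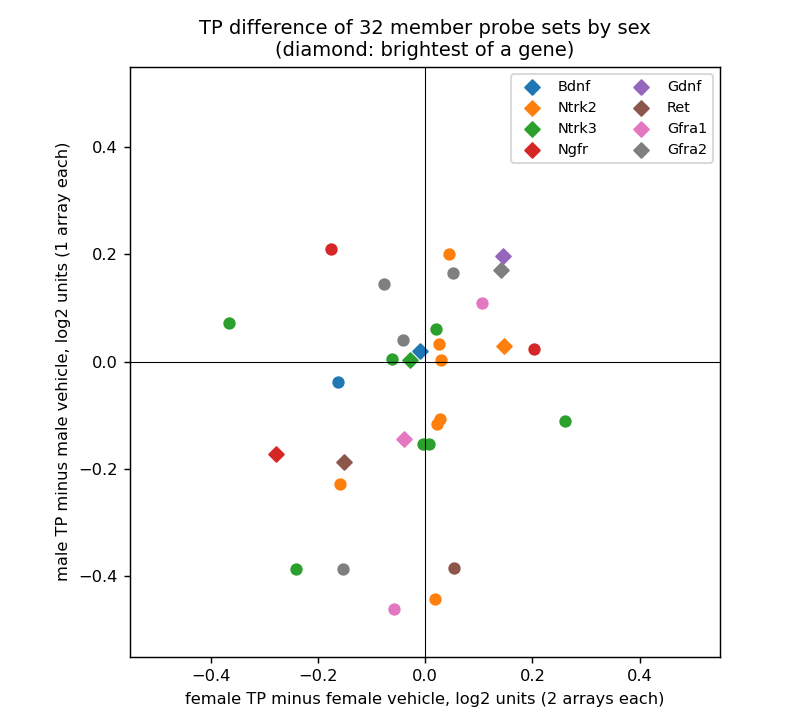
Each point is a member probe set, with TP minus vehicle in females (2 arrays each) on the horizontal axis and in males (1 array each) on the vertical axis, both in log2 units; colours are genes and diamonds the brightest of a gene. The diamonds of Ngfr and Ret lie below 0 on both axes, that of Gdnf above 0 on both, and those of Bdnf and Ntrk3 below 0 for females and above 0 for males, the farthest coordinate being -0.028.

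Males were compared with females over both treatments, with the array labelled male TP among the 2 male arrays. Of the 32 probe sets 0 passed, beside 0.0222% of all, 3 had an unadjusted p under 0.05, beside 12.1%, and 8 had groups that did not overlap, beside 19.8%. Ngfr (1454903_at) was the largest negative value, averaging 6.69 ± 0.12 in male arrays (SD, n = 2) and 7.01 ± 0.19 in female arrays (SD, n = 4), with a difference of -0.32 log2 units (SE 0.085, adjusted p = 0.315), or -0.37 without the male TP array. The largest positive value was that of the dim Ntrk2 probe set 1444121_at, 0.34 log2 units (SE 0.080, adjusted p = 0.305), with both male arrays above all female ones. The third was 1446712_at of Ntrk2, -0.19 log2 units (SE 0.072, adjusted p = 0.382), with both male arrays below all female ones. For the brightest Ret probe set, male minus female was -0.0046 log2 units, SE 0.064, and 0.013 without the male TP array. Without that array the male vehicle array alone is left in its group, so members called in that fit are not counted here.

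Other genes of the same signalling systems were read through the brightest probe set of each gene. The lists were drawn up for this purpose with earlier results of these data known. In the list of further ligands, receptors and co-receptors 18 of 23 genes were measured, 0 passed over both sexes, and 16 had negative and 2 positive differences, where 62.1% of all genes were negative. Its median was -0.028 log2 units, beside -0.029 over all genes, and 2 had an unadjusted p under 0.05, beside 9.79% of all genes. These were Artn and Gfra3, which encode artemin, a GDNF family ligand, and its co-receptor GFRα3. Artn (1432032_a_at, dim) read 4.15 and 4.30 in female TP arrays, against 4.76 and 4.63 in female vehicle arrays, and 4.37 in the male TP array, against 4.62 in the male vehicle array. All TP arrays lay below all vehicle arrays, and the difference was -0.40 log2 units (SE 0.082, adjusted p = 0.238), while in females alone it was -0.47 log2 units (SE 0.10, adjusted p = 0.525). Gfra3 read 5.81 and 5.81 in female TP arrays, against 5.97 and 5.90 in female vehicle arrays, and 5.86 in the male TP array, against 6.04 in the male vehicle array. Its groups also lay apart, with a difference of -0.14 log2 units (SE 0.061, adjusted p = 0.405). Next in this list were the Nogo receptor gene Rtn4r at -0.12 and the sortilin family receptor gene Sorcs3 at -0.14, whose other probe set had the opposite sign.

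Genes that process the ligands, 13 of 15 measured, gave 0 that passed, 5 negative and 8 positive differences (median 0.048) and 4 of 13 with an unadjusted p under 0.05, beside 62.1% negative, a median of -0.029 and 9.79% over all genes. They were the matrix metalloproteinase gene Mmp3 (dim, -0.24), Cpe, which encodes carboxypeptidase E (0.23), and the proprotein convertase genes Pcsk5 (0.15) and Pcsk1 (-0.22). Cpe stood at 13.46 and 13.42 in female TP arrays, against 13.21 and 13.40 in female vehicle arrays, and 13.63 in the male TP array, against 13.22 in the male vehicle array. All 3 TP arrays lay above all 3 vehicle arrays, and its adjusted p was 0.367. With the male TP array left out, the values were 0.14 for Cpe, -0.24 for Mmp3, 0.16 for Pcsk5 and -0.27 for Pcsk1. The other probe set of Cpe had a positive difference too, while 2 of the 4 other probe sets of Pcsk5 had the opposite sign to its brightest.

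Receptor adaptors and signalling genes, 33 of 46 measured, gave 0 that passed, 24 negative and 9 positive differences (median -0.035) and 1 of 33 with an unadjusted p under 0.05, beside the same 62.1%, -0.029 and 9.79% over all genes. It was the adaptor gene Grb7 (0.27), followed by the CREB coactivator gene Crtc1 (-0.14), the docking protein gene Gab2 (-0.11) and Rasa1, a GTPase activating protein of Ras (0.12). The opposite sign was seen at 1 of the 2 other probe sets of Crtc1 and at 2 of the 2 of Gab2. Among 25 genes known to respond to neurotrophin signalling, all measured, 0 passed, 15 were negative and 10 positive (median -0.018), and 1 of 25 had an unadjusted p under 0.05, beside the same shares over all genes. It was the transcription factor gene Egr3 (0.23), whose other probe set had the opposite sign. Spry1, an inhibitor of receptor tyrosine kinase signalling (-0.18), Npas4, an activity-induced transcription factor gene (-0.17), and the transcription factor gene Mef2c (0.12) came next. With the male TP array left out, the values were 0.36 for Grb7, 0.23 for Egr3 and -0.074 for Npas4, and negative differences numbered 12 of 18 further ligands and receptors, 6 of 13 processing genes, 25 of 33 adaptor and signalling genes and 14 of 25 response genes, beside 59.2% of all genes, and 0 passed.

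Markers of regions and of other cells were read beside Ret and Ngfr, since both are expressed in motor neurons and peripheral neurons of the embryo and newborn. These lists were chosen with earlier results of these data known, so the counts in them are descriptions. All 8 hindbrain and spinal cord markers had negative differences over both sexes at their brightest probe sets (median -0.34 log2 units, 7 with an unadjusted p under 0.05, 0 that passed), beside 62.1% negative and 9.79% with such a p over all genes. Another probe set had the opposite sign for Slc6a5 (1 of 1) and Hoxc5 (1 of 2). Their mean log2 level was 5.96 to 6.26 in the TP arrays and 6.46 to 6.54 in the vehicle arrays. Without the male TP array all 8 were negative too, 5 of them with an unadjusted p under 0.05, beside 59.2% and 5.77% of all genes. The lowest over both sexes was Hoxb5, at -0.51 (SE 0.093). Of the 8 markers 1 was dim. Cholinergic and motor neuron markers were negative in 6 of 6, with mean levels of 4.62 to 4.76 in the TP arrays and 4.77 to 4.85 in the vehicle arrays, and 4 of them, Chat, Slc18a3, Slc5a7 and Mnx1, were dim. Markers of peripheral ganglia and Schwann cells were negative in 5 of the 5 measured, 1 of which was dim. Their mean levels were 5.43 to 5.51 in the TP arrays and 5.55 to 5.67 in the vehicle arrays. Dopamine neuron markers were negative in 5 of 7, with mean levels of 5.79 to 5.87 in the TP arrays and 5.87 to 5.97 in the vehicle arrays. Endothelial markers were negative in 4 of 4, with mean levels of 7.24 to 7.36 in the TP arrays and 7.46 to 7.51 in the vehicle arrays. Dim markers numbered 2 of the 7 dopamine neuron markers and 0 of the 4 endothelial ones. None of these lists had a gene that passed, and genes with an unadjusted p under 0.05 numbered 0 of 6, 1 of 5, 1 of 7 and 2 of 4 in them, beside 9.79% of all genes. Without the male TP array the negative counts were again 6 of 6, 5 of 5, 5 of 7 and 4 of 4, with 1, 1, 1 and 0 at an unadjusted p under 0.05. Astrocyte markers were negative in 5 of 6, with mean levels of 10.31 to 10.36 in the TP arrays and 10.37 to 10.44 in the vehicle arrays. Oligodendrocyte lineage markers were negative in 4 of 6, at 9.49 to 9.53 in the TP arrays and 9.50 to 9.58 in the vehicle arrays, and meningeal and mural markers in 5 of 7, at 9.20 to 9.41 in the TP arrays and 9.31 to 9.42 in the vehicle arrays. With the male TP array left out, astrocyte, oligodendrocyte lineage and meningeal markers were negative in 3 of 6, 2 of 6 and 2 of 7. The share over all genes was 59.2% there. The part of these shifts in the values of Ret, Ngfr and Artn was not tested. Pituitary markers stood at a mean level of 6.12 in the male TP array and between 4.81 and 5.27 in the other 5 arrays, and neuron markers between 12.67 and 12.73 in all 6. Differences of pituitary markers were negative in 1 of the 5 measured over both sexes and in 5 of 5 without the male TP array, and 3 were dim. Neuron markers were negative in 4 of 8 with and without that array.

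**Figure D4:**
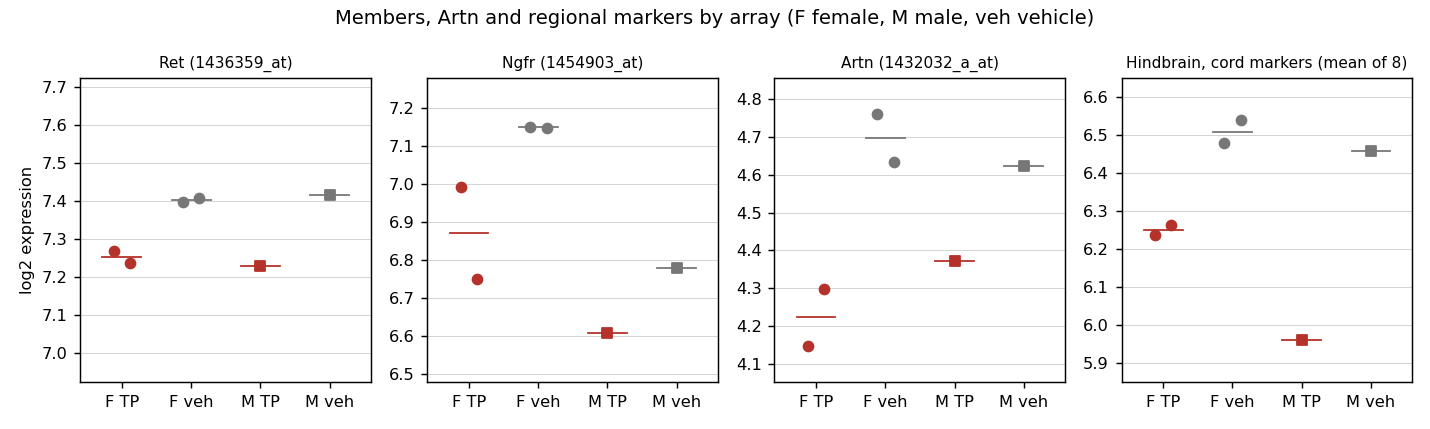
The panels plot log2 expression by array (circles female, squares male, red TP, grey vehicle, lines group means) for Ret, Ngfr, Artn and the mean of 8 hindbrain and spinal cord markers. In the panels of Ret, Artn and the markers all red points lie below all grey ones, and in that of Ngfr they do so within each sex only. The marker list was chosen with earlier results of these data known.

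The genes whose values over the 6 arrays were most like those of Ngfr, which had the largest range (0.54 log2 units) of the members' brightest probe sets that were not dim, were Fhit, Spx and Pla2g3, each with Pearson's r of 0.99, out of 13178 other genes that were not dim. There were 62 such genes with an r over 0.95, over arrays that share their processing. Fhit read 6.93 and 6.80 in female TP arrays, against 6.98 and 6.99 in female vehicle arrays, and 6.77 in the male TP array, against 6.82 in the male vehicle array.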

How the data were processed

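Log2 expression values of 6 Affymetrix arrays were used as deposited by the authors, who used RMA per the submitters' processing notes, with its version and settings not given in the sources used here. Such values compress differences at low levels. Groups came from the labels. Of 45101 probe sets, 64 controls were left out and 45037 tested. The platform annotation gave 1 gene for 34945, several for 932 and none for 9160, and 34741 of the single-gene ones matched RefSeq. R 4.3.3 with the package limma, version 3.58.1, gave the differences from linear models with moderated variances, with p-values adjusted over all 45037 by Benjamini-Hochberg. The fits were female TP against female vehicle on 4 arrays, TP against vehicle with sex as a term, male against female with treatment as a term, and the difference of the TP effects. The fit was tested on simulated data. Figures were drawn with matplotlib 3.10.9.

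Values by array are given for each member's brightest probe set, for those with TP and vehicle apart or with a sign opposite to the brightest, and for probe sets singled out after their values were seen (1422169_a_at, 1421359_at and 1443970_at). From each other list, up to 4 genes with the smallest p were named. Members and lists were chosen with earlier results of these data known. Alternatives were the probe set per gene, dim probe sets, normalization, intensity trend, the replicate block and leaving out arrays.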

Additional observations from a re-analysis of the deposited data

Results flagged for a closer look

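For Xist (1436936_s_at), TP minus vehicle in females less that in males was -5.00 log2 units (adjusted p = 0.000217 by limma). Each male group holds 1 array, so this p takes its spread from the female arrays alone, and the value rests on the single array labelled male TP. It stood at 10.45 in the male TP array, against 5.29 in the male vehicle array, and at 12.81 and 12.83 in female TP arrays, against 12.71 and 12.61 in female vehicle arrays. Eif2s3y was at 9.12 in the male TP array and 9.16 in the male vehicle array. Pituitary markers were also high in the male TP array, with Gh at 8.55 there, against 5.71 in the male vehicle array. Whether the pool held RNA of both sexes or the label is wrong was not tested. Every value over both sexes, and every value in males, uses this array, and its part in them was not tested beyond leaving it out.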

How the results depend on the processing

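No member probe set passed an adjusted p under 0.05 in limma in any comparison under any alternative run. At an unadjusted p under 0.05 there were 4 over both sexes, beside 5520 of all 45037 probe sets. With 1 array left out there were 0 to 8. The 0 came without female TP array 2, beside 4358 of all 45037, and the 8 without female vehicle array 2, beside 7263. Over both sexes the brightest probe sets of Ngfr (-0.30 to -0.049), Ret (-0.18 to -0.13), Gfra1 (-0.10 to -0.040) and Gdnf (0.13 to 0.20) kept their sign under all alternatives that gave a value; Gdnf, whose 1 probe set is dim, had none without dim probe sets. The widest move of Ngfr, to -0.049, came with the mean of its 3 probe sets, 2 of which were dim.

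Counts over all probe sets moved more. In females 5 passed, against 3 when probe sets were averaged by gene, 1 without dim probe sets, 8 after quantile normalization, 13 after centring, 37 with an intensity trend and 2 with the replicate block. Over both sexes 4 passed, against 0 with the brightest or the mean per gene, 1 without dim ones, 138 with the trend and 2 with the replicate block. For sex 10 passed, against 3 with the brightest or the mean, 1 without dim ones and 49 with the trend, which also called 1 pathway gene. For the difference of TP effects 7 passed, against 2 with the brightest or the mean, 4 without dim ones and 12 with the trend. With 1 array left out, the counts were 0 to 0 in females, 0 to 5 over both sexes (0 without female TP array 1, female TP array 2 or female vehicle array 2, 2 without female vehicle array 1), 7 to 19 for sex (19 without the male vehicle array) and 6 to 6 for the difference. Original minus replica in TP females and original minus replica in vehicle females had a Pearson's r of 0.11 over probe sets. This does not show what an array and its replica share. The replicate block changed no member's call.

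Signs turned with the mean per gene for Gfra1 (0.0020) and Gfra2 (-0.016) in females, Ntrk2 (-0.013) and Gfra2 (-0.0013) over both sexes, Ntrk3 (0.022), Ret (0.037) and Gfra2 (0.043) for sex, and Ntrk3 (0.031) for the difference. Bdnf over both sexes turned after quantile normalization (0.0090) and centring (0.0029), Ret for sex after quantile normalization (0.039), and Gfra2 for sex with the replicate block (0.0042). The cause was not tested. Gfra2 over both sexes ranged from 0.034 to 0.27 with 1 array left out. Other ranges, those that crossed 0, were, in females, Bdnf -0.078 to 0.058, Gfra2 -0.070 to 0.35 and Ntrk3 -0.066 to 0.0092; over both sexes, Bdnf -0.036 to 0.042 and Ntrk3 -0.036 to 0.0066. For sex they were Gfra2 -0.16 to 0.020, Ntrk2 -0.0090 to 0.11 and Ret -0.022 to 0.013. For the difference they were Bdnf -0.097 to 0.039, Gdnf -0.11 to 0.0078, Gfra2 -0.24 to 0.18, Ngfr -0.23 to 0.014 and Ntrk3 -0.069 to 0.0061. The number of arrays limits the precision.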
